A study of Mus musculus with 4 samples.

Results

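The Tmem181 and Dynlt1 segment is the stretch of mouse chromosome 17 from 5700000 to 7200000 (GRCm38, also called mm10). It holds the repeated copies of the genes Tmem181 and Dynlt1 together with their neighbours. Its members were all pairs of genomic intervals, called anchors, in the deposited table of read-pair counts with at least 1 anchor overlapping that range. The rule found 3077 of the 1513030 pairs in the table, and these pairs used 80 of the 56562 anchors within the range. Every member pair was used, although 1624 of them held a single count over the 4 libraries and only 62 pairs and 69 anchors held the 20 counts needed for a fitted value. The segment was picked because its counts were already known to differ between the strains, so the strain values below describe that choice and carry no test.

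The counts came from mouse embryonic stem cells by H3K27ac HiChIP, a method that ligates DNA ends lying close together in fixed nuclei and enriches the joined fragments with an antibody. The strains were C57BL/6J (B6), with the lines B6 4-1 (replicate 1) and B6 5-1 (replicate 2), and DBA/2J (D2), with the lines D2 2-9 (replicate 1) and D2 5-5 (replicate 2). Each line gave 1 library, so the spread within a strain is that between 2 lines. All 4 lines grew in serum with LIF and the inhibitors PD0325901 and CHIR99021, carried no stated genetic change, and were fixed with 1% formaldehyde and cut with DpnII. In the labels D2 replicate 1 is marked 10cyc and the other libraries 8cyc, without an explanation.

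H3K27ac marks active promoters and enhancers, and a HiChIP count joins a marked site with another site that was near it in the nucleus. Dynlt1, also known as Tctex-1, is a light chain of cytoplasmic dynein, the motor that carries cargo along microtubules toward the cell centre, and the gene lies in the proximal part of chromosome 17 where the t-complex was first studied. Tmem181 encodes a membrane protein of several passes. In the mouse reference genome both genes stand in a cluster of segmental duplications, long stretches of nearly identical sequence, with intact copies (Tmem181a, Dynlt1a, Dynlt1b, Dynlt1c and Dynlt1f), the Tmem181 pseudogenes Tmem181b-ps and Tmem181c-ps, and the long noncoding transcript Gm26848 running between them. The core is defined here from the first base of Tmem181a to the last base of Dynlt1f (6256860 to 6655900, 399.0 kb), and the rest of the segment is called the left flank and the right flank.

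The starts of the 4 Dynlt1 copies show how little separates them. The following 140 bases lie just upstream of the annotated starts of Dynlt1c in GRCm38 (RefSeq promoter table, GRCm38.p6), each with the best match before the other copies. Capitals mark letters that differ from the Dynlt1c copy, and the sequences are shown because reads can be placed on 1 copy only through such letters.
Dynlt1a, chr17:6317542-6317677, minus strand: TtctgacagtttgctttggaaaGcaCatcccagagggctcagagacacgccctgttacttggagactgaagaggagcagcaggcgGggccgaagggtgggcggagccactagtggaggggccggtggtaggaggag
Dynlt1b, chr17:6429931-6430070, plus strand: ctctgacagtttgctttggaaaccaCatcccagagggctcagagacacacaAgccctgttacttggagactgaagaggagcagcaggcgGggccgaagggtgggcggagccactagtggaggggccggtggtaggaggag
Dynlt1c, chr17:6601529-6601668, plus strand: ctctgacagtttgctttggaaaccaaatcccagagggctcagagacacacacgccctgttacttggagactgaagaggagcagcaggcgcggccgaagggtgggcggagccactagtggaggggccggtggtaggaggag
Dynlt1f, chr17:6655942-6656081, minus strand: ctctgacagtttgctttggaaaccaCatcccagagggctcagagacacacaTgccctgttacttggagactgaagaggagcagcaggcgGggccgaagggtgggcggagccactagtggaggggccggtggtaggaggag
Dynlt1b and Dynlt1f each differed from Dynlt1c by 3 letters, and Dynlt1a by 8 letters, 4 of them deleted bases. Of the 75-base windows in this stretch, the length of 1 read, 100% occurred once in the genome for Dynlt1c, 78.8% for Dynlt1b and for Dynlt1f, and 77.4% for Dynlt1a.

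The copied Tmem181 start did not differ at all over 120 bases. Tmem181a has a second annotated start at which RefSeq places a promoter, and the bases before it recur, inverted, in the broad anchor that begins over the 5′ end of Tmem181b-ps and lies otherwise within an intron of Gm26848.
Tmem181a second start, chr17:6270350-6270469, plus strand: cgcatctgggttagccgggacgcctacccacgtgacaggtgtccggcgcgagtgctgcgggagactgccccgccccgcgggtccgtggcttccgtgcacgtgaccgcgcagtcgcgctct
Copy upstream of Tmem181b-ps, chr17:6477138-6477257, minus strand: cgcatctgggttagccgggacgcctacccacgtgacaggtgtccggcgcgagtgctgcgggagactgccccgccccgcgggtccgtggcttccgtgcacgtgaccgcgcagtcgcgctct
The pair had 0 differences, and 0% of its 75-base windows were unique.

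The duplications covered nearly the whole core. A self-alignment of the segment found 10 pairs of blocks of at least 20 kb, and 99.9% of the core lay in them, against 6.77% of the left flank and 11.8% of the right flank. The longest joined 6318058 to 6473114 with 6486825 to 6645862 in the same orientation at 98.9% identity, and thereby set Dynlt1b beside Dynlt1c and Tmem181b-ps beside Tmem181c-ps. An inverted block joined 6219248 to 6317639 with 6429969 to 6528832 at 99.1% identity and set Tmem181a and Dynlt1a against Tmem181b-ps and Dynlt1b. In the core 29.0% of all 75-base windows were unique in the 21 chromosomes scanned, in the left flank 91.0% and in the right flank 61.5%.

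Counts followed this measure across the reference sequence. Core anchors had unique shares from 3.41% to 50.9% with a median of 25.9%, against medians of 99.2% in the left flank and 91.6% in the right flank. The median anchor held 8.91 counts per kb over the 4 libraries in the core, 54.0 in the left flank and 31.5 in the right flank. Over the 80 anchors the Spearman correlation of the unique share with counts per kb was 0.863, and over the 26 core anchors 0.765, as a description of anchors that share libraries and neighbours. The rank correlation of the unique share with the size of the log2 strain difference was -0.54 over 69 anchors and 0.28 over the 19 core anchors with a fitted value. The part of read placement in the strain values was not tested, and how reads with several matches were treated is not given in the sources used here.

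The stretches without any anchor were of both kinds. The longest ran from 6991767 to 7167165 (175.4 kb, 39.7% of its windows unique) and covered the start of Gm1604a and the 3′ part of Rnaset2b. The next ran from 6732775 to 6806851 (74.1 kb, 99.7% unique) and held the start of Ezr, which encodes ezrin, a linker between the membrane and actin. In the left flank the stretch from 6133885 to 6200489 within Tulp4 had none either (66.6 kb, 98.2% unique). Each of the 80 segment anchors started and stopped at GATC, which DpnII cuts. At the edges, the last anchor before the range (5693739 to 5695433) held 32 and 18 counts in the B6 libraries and 20 and 35 in D2, and the first inside it (5750995 to 5753804) held 31, 33, 22 and 33 in the same order. At the far end the last anchor inside (7196447 to 7200039) held 96, 93, 103 and 124 counts and the next one outside (7203400 to 7211252) held 201, 183, 193 and 221.

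The libraries as a whole were of similar depth. Library totals in the table ran from 2767882 to 2944258 counts, and values in CPM below are counts scaled to a library total of 1000000. The stem cell state was checked against markers by the anchors over their starts: 7 of 10 embryonic stem cell genes had such an anchor, at 82.2 to 980.5 CPM in any library. Of these 7, Nanog (log2 fold change 0.68, SE 0.21) and Sox2 (0.62, SE 0.18) passed the strain fit described below as higher in D2. The others did not pass, at 0.53 for Tbx3, 0.46 for Zfp42, -0.03 for Prdm14, -0.12 for Pou5f1 and -0.20 for Klf4. The list median was 0.46, and the part of these genes in the segment's counts was not tested. Of the fibroblast genes that would mark feeder cells 2 of 5 had one, at 1.08 to 7.56 CPM. All 3 primitive endoderm genes (7.95 to 24.2 CPM) and all 3 genes of somatic lineages (12.1 to 80.3 CPM) had an anchor.

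Counts of the whole segment hardly separated the strains. The segment held 2411 counts in B6 replicate 1, 2214 in B6 replicate 2, 2158 in D2 replicate 1 and 2949 in D2 replicate 2. As a share of the library this was 0.0829% and 0.0790% in B6 and 0.0780% and 0.100% in D2. The lowest and the highest value were both of D2, and the B6 libraries lay between them. The D2 mean was 0.0891% ± 0.0157 and the B6 mean 0.0810% ± 0.00272 (SD, n = 2 each), giving a log2 ratio of 0.14 that turned to -0.05 without D2 replicate 2. With 2 libraries per strain the smallest p of an exact two-sided permutation test is 0.333, and none was run on the shares.

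Of the core and its flanks, only the core had summed counts in which the strains stood apart. Its pairs held 708 and 628 counts in B6 and 779 and 1115 in D2, which is 0.0243% and 0.0224% of the B6 libraries and 0.0281% and 0.0379% of the D2 libraries. Both D2 values lay above both B6 values, with D2 replicate 2 far above D2 replicate 1. The log2 ratio of the means was 0.50, and 0.27 without D2 replicate 2. The left flank, counted over pairs with no core anchor, held 1144, 1072, 881 and 1254 counts (log2 ratio -0.06), and there the strains overlapped. The right flank held 559, 514, 498 and 580 counts (log2 ratio 0.00), again with overlap. That sum adds opposite differences of its anchors, such as log2 fold changes of 1.11 at 6693560 and -2.46 at 6977287. An anchor's count depends on the H3K27ac on its DNA, on how often it was joined to other sites and on which reads were placed on it. These cannot be told apart here, and the copies present in D2 DNA were not examined.

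The differences of single anchors ran in 2 directions within the core, and so the sum over the core hides most of them. In the fit over all 51820 anchors with at least 20 counts (edgeR's quasi-likelihood test, Benjamini-Hochberg adjustment over all of them), 12 of the 69 segment anchors passed an adjusted p of 0.05, 7 higher and 5 lower in D2, where 9.75% of all anchors passed (2.67% higher, 7.08% lower). The core held 6 of the higher and 3 of the lower anchors out of 19, and the right flank 1 higher and 2 lower out of 19. In the left flank 0 of 31 passed, with 2 at an unadjusted p under 0.05 and 0 by DESeq2. Over all 51820 anchors 11361 had such an unadjusted p by edgeR and 5349 by DESeq2. With DESeq2 3 higher and 2 lower anchors of the segment passed, where 238 higher and 1069 lower of all 51820 anchors passed. Leaving out 1 library left 8 to 13 anchors. In 21 of the 69 anchors both D2 libraries lay above both B6 libraries and in 12 both lay below. Of all anchors 49.5% were separated in 1 of these ways (21.5% above, 28% below). The median log2 fold change (D2 over B6) was 0.41 in the core, 0.01 in the left flank and 0.03 in the right flank, and 0.01 over all anchors. The segment was chosen on this contrast, so these counts are part of its description.

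**Figure D1:**
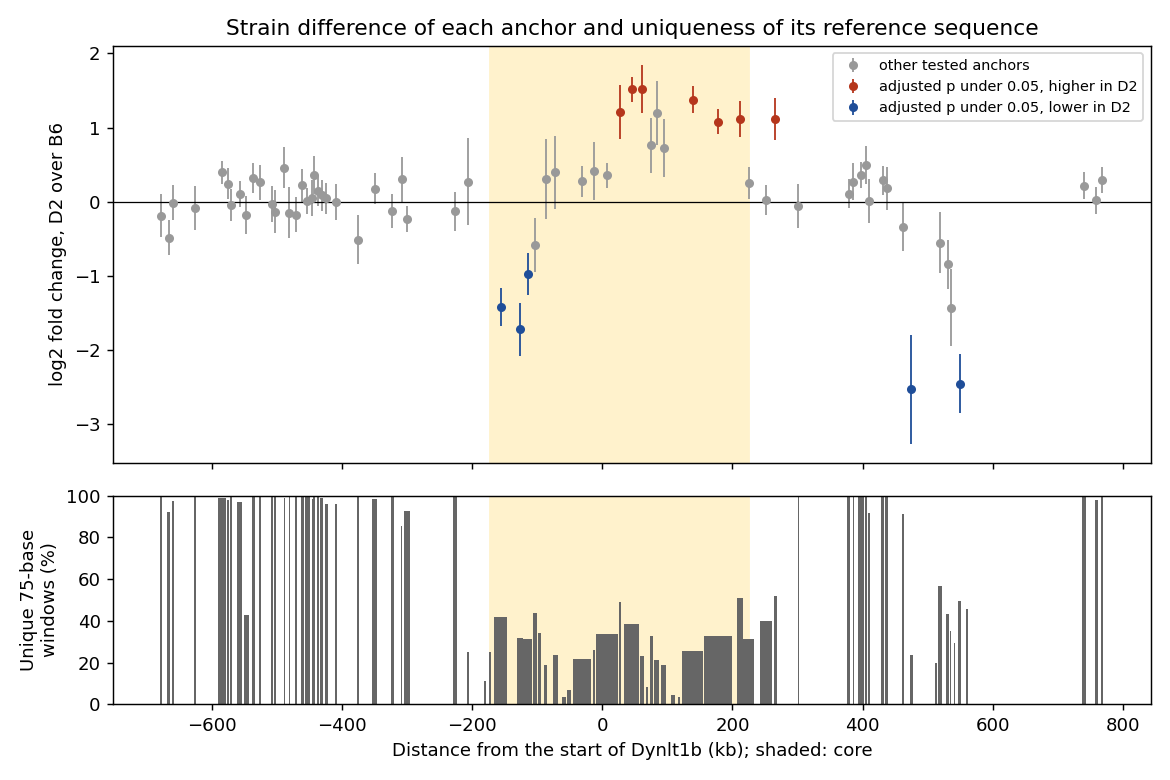
Top: log2 fold change of D2 over B6 with its standard error for the 69 anchors with a fitted value, against the distance from the start of Dynlt1b in kb (core shaded). Bottom: percent of 75-base windows in each of the 80 anchors that are unique in the reference. In the core 3 anchors on the left are lower in D2 and 6 further right are higher, and core anchors are at most 50.9% unique.

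From the left edge to Tulp4 the anchors varied little by strain. The anchor over the start of Snx9 (5838843 to 5851873), a sorting nexin of endocytosis, had 171, 159, 209 and 214 counts, in the order B6 replicate 1, B6 replicate 2, D2 replicate 1, D2 replicate 2, which is kept below. Both D2 libraries were above both B6 libraries, at 57.8 CPM ± 1.43 in B6 against 74.1 CPM ± 2.00 in D2 (SD, n = 2 each), with a fitted log2 fold change of 0.39 (SE 0.16). The main anchor over Synj2 starts (5972773 to 5980739), which encodes an inositol phosphatase of the synaptojanin family, had 160, 149, 102 and 205 counts. There the lowest and the highest value were both of D2, and the log2 fold change was 0.01 (SE 0.18).

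The 4 further start anchors of Synj2 held 8.60 to 30.2 CPM in a library. The shared start of Serac1, a mitochondrial lipid remodelling gene, and Gtf2h5, a small subunit of the repair and transcription factor TFIIH (6076527 to 6083625), had 65, 54, 67 and 64 counts with the strains overlapping. The start of Tulp4 (6104731 to 6109815), of the tubby family, had 45, 74, 45 and 62 counts, again overlapping. The strong anchor inside Tulp4 (6125225 to 6133884) had 121, 110, 81 and 112 counts, with both D2 libraries below B6 and D2 replicate 2 only just so. Fitted log2 fold changes of the left flank ran from -0.52 to 0.46. The 2 left flank anchors nearest to the core, at 25.3% and 11.4% unique sequence, held at most 7 counts in any library.

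At Tmem181a and Dynlt1a, the leftmost copies of the core, B6 counts exceeded D2 counts. The anchor over the second Tmem181a start (6263798 to 6283612, 41.8% unique), which holds the first of the identical Tmem181 sequences printed above, had 70 and 59 counts in B6 and 23 and 24 in D2. The strains did not overlap and each pair of libraries was close, at 22.6 CPM ± 2.12 in B6 against 8.23 CPM ± 0.112 in D2 (SD, n = 2 each), with a log2 fold change of -1.42 (SE 0.26). At the 3′ ends of Tmem181a and Dynlt1a the anchor (6298693 to 6308080) had 47, 31, 6 and 17 counts, again with both D2 libraries below, and a log2 fold change of -1.72 (SE 0.36), which did not pass with DESeq2. Over the starts of Dynlt1a and Gm26848, the anchor (6308587 to 6322801, 31.4% unique) had 42, 43, 21 and 21 counts. It also separated the strains, at a log2 fold change of -0.98 (SE 0.29), but this call was lost without either B6 library, without D2 replicate 2 and with DESeq2. The first Tmem181a start (6256008 to 6258500) held 6, 1, 1 and 5 counts, too few for a fitted value.

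Inside Gm26848, between Dynlt1a and Dynlt1b, most anchors were weak. The anchor at 6324065 to 6330229, over the pseudogene Ppp1r2-ps1, had 26, 23, 9 and 23 counts, with D2 replicate 1 low and D2 replicate 2 level with B6 replicate 2. The anchors at 6331495, 6368050 and 6376494 had at most 7 counts in any library, and the latter pair had 3.41% and 6.71% unique sequence. The anchors at 6340276 and 6353673 had 5 to 13 counts in every library and overlapped between strains. The broad anchor over the 5′ end of the pseudogene Gm29719 (6385135 to 6412894, 21.8% unique) had 54, 52, 63 and 62 counts, with both D2 libraries slightly above and a log2 fold change of 0.27 (SE 0.21). The next anchor (6415557 to 6418967) had 14, 15, 11 and 27 counts and overlapped.

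The anchor over the start of Dynlt1b was strong in both strains. It spans 6420281 to 6454549 (34269 bases, 33.8% unique) with the 3′ part of Tmem181b-ps, and had 132, 133, 131 and 203 counts. D2 replicate 1 lay at the level of B6 and D2 replicate 2 above it, giving 46.4 CPM ± 1.48 in B6 against 58.1 CPM ± 15.3 in D2 (SD, n = 2 each). The log2 fold change was 0.36 (SE 0.17), and it passed the threshold only when D2 replicate 1 was left out (0.55).

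Immediately to the right D2 counts were well above B6 counts. The anchor from 6464066 to 6486247 (38.7% unique), over the 5′ end of Tmem181b-ps and the second of the identical Tmem181 sequences, had 96 and 82 counts in B6 and 221 and 279 in D2. Both D2 libraries lay far above both B6 libraries. The means were 31.1 CPM ± 2.64 in B6 against 87.3 CPM ± 10.5 in D2 (SD, n = 2 each), 2.80 times as high, with a log2 fold change of 1.52 (SE 0.17). Its small left neighbour in Tmem181b-ps (6455803 to 6458121) had 13, 12, 22 and 35 counts (log2 fold change 1.21, SE 0.36), a call that was lost without either B6 library, without D2 replicate 2 and with DESeq2. Its right neighbour (6488360 to 6493956), over the last exon of Gm26848, had 17, 11, 37 and 42 counts, with both D2 libraries above both B6 libraries and a log2 fold change of 1.52 that did not pass with DESeq2.

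Between Gm26848 and the 5′ end of Gm29721 the anchors were again weak, with 0 to 34 counts in a library. In the 3 of them that held enough counts (6502835, 6509732 and 6520686) D2 replicate 2 was the highest library each time, and the log2 fold changes were 0.76, 1.20 and 0.72. The 3 others (6496746, 6534921 and 6545831) had at most 5 counts in any library and 3.41% to 8.20% unique sequence.

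The copies around Dynlt1c also had higher D2 counts. The broad anchor over the pseudogene Gm29721 (6552015 to 6585403, 25.7% unique) had 58, 62, 142 and 163 counts, with the strains far apart and the libraries of each strain close, at a log2 fold change of 1.38 (SE 0.18). The anchor over the start of Dynlt1c (6586423 to 6629928, 43506 bases, 32.7% unique), the strongest of the core, had 157, 121, 233 and 346 counts. Both D2 libraries were above both B6 libraries and D2 replicate 2 was the highest, at 48.6 CPM ± 7.62 in B6 against 100.8 CPM ± 23.6 in D2 (SD, n = 2 each) and a log2 fold change of 1.08 (SE 0.17). Over the 5′ end of Tmem181c-ps, the anchor (6636669 to 6646079) had 37, 32, 51 and 96 counts and a log2 fold change of 1.11 (SE 0.24), which fell short of the threshold without D2 replicate 2 (0.70) and with DESeq2.

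Dynlt1f, the last copy, was nearly level between strains. Its anchor (6646977 to 6663592, 31.4% unique) also covers the first start of Sytl3, a synaptotagmin-like gene of vesicle docking, and had 48, 51, 57 and 58 counts. The D2 libraries were only just above the B6 libraries, with a log2 fold change of 0.25 (SE 0.22).

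In the right flank the anchor nearest the core did not separate the strains and the second one did. The further Sytl3 start (6672203 to 6690517) had 76, 71, 56 and 91 counts and overlapped, whereas the next anchor within Sytl3 (6693560 to 6698576, 52.0% unique) had 22, 24, 33 and 65 counts, with D2 above and a log2 fold change of 1.11 (SE 0.29) that was lost without B6 replicate 1, without D2 replicate 2 (0.66) and with DESeq2. The unique-sequence anchors around the noncoding genes 4933426B08Rik and Gm2885, from 6806852 to 6869135, had log2 fold changes between 0.01 and 0.50. The largest of them (6823294 to 6831994), over the start of Gm2885, had 126, 103, 157 and 128 counts, with D2 replicate 2 only just above B6 replicate 1.

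Further right, from Rsph3b to Rnaset2b, B6 counts exceeded D2 counts. Sequence there was also repeated in part, with 56.6% unique in the Rsph3b start anchor and 43.1% in that of Tagap1. The anchor over the start of Rnaset2b and Gm49721 (6977287 to 6981399, 49.4% unique), Rnaset2b being a ribonuclease of the T2 family, had 35 and 39 counts in B6 and 4 and 9 in D2. Both D2 libraries were far below, at 13.0 CPM ± 1.34 in B6 against 2.25 CPM ± 1.14 in D2 (SD, n = 2 each) and a log2 fold change of -2.46 (SE 0.40). An exon of Rsph3b, a radial spoke gene of cilia (6902672 to 6906791, 23.5% unique), had 12, 7, 1 and 2 counts. Both D2 libraries were below both B6 libraries, but the log2 fold change of -2.54 rests on few counts. Its call was lost without D2 replicate 1 and with DESeq2. Only 2 of the 4 fits with a library left out kept enough counts for this anchor. The start of Tagap1, which encodes a GTPase-activating protein (6957760 to 6963453), had 26, 35, 17 and 16 counts, again with D2 below (log2 fold change -0.85, SE 0.33). The Rsph3b start (6946512 to 6951626) had 19, 17, 6 and 18 counts, and there only D2 replicate 1 was low. Over the 7 anchors that overlap these 3 genes, pairs counted once, B6 had 94 and 97 counts against 28 and 48 of D2.

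At the right end the strains were close again. The start of Rps6ka2 (7167166 to 7173936, 100% unique), a ribosomal S6 kinase, had 88, 86, 89 and 109 counts with a log2 fold change of 0.22 (SE 0.18). The anchors further inside the gene at 7186874 and 7196447 had log2 fold changes of 0.02 and 0.30.

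The copies were also compared as families, since reads of one copy can match another. Summed over the 4 anchors that hold Dynlt1 starts, each pair counted once, they had 359, 336, 403 and 581 counts. Both D2 libraries were above both B6 libraries, at 121.7 CPM ± 2.46 in B6 against 171.5 CPM ± 36.6 in D2 (SD, n = 2 each), a log2 ratio of 0.49. Of the summed anchor counts of these 4 anchors, the Dynlt1a anchor held 11.1% and 12.4% in B6 and 4.75% and 3.34% in D2, and the Dynlt1c anchor 41.4% and 34.8% in B6 and 52.7% and 55.1% in D2. The share of the Dynlt1b anchor was 34.8%, 38.2%, 29.6% and 32.3%, and that of the Dynlt1f anchor 12.7%, 14.7%, 12.9% and 9.24%. Thus the Dynlt1c share was higher and the Dynlt1a and Dynlt1b shares lower in both D2 libraries, and the Dynlt1f share overlapped between strains.

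The anchors that hold the identical Tmem181 start were compared as a pair. The Tmem181a anchor aligned inverted, over 100% of its length and at 99.0% identity, to the Tmem181b-ps anchor. The latter held 57.8% and 58.2% of their summed counts in B6 and 90.6% and 92.1% in D2. Counted once per pair, both anchors together had 166 and 140 counts in B6 and 240 and 296 in D2 (53.5 CPM ± 5.02 and 93.6 CPM ± 9.78, SD, n = 2 each, log2 ratio 0.81). The sum was thus higher in both D2 libraries, although the Tmem181a anchor alone was lower. Sums of other aligned anchors were not all higher. The Tmem181a anchor and its copy at Tmem181c-ps (6636669, 98.4% identity) summed to 34.6 CPM in B6 and 33.7 CPM in D2 (log2 ratio -0.04). The Tmem181c-ps share of that sum was 34.9% in B6 and 74.5% in D2. The Dynlt1a anchor summed with the Dynlt1b anchor gave a log2 ratio of 0.09, and with the Dynlt1c anchor 0.77. The longest alignment covered 55.5% of the Dynlt1a anchor for Dynlt1b and 54.9% for Dynlt1c, so these sums also hold counts outside it. By gene group, the 4 anchors of Tmem181a and Dynlt1a together had 146, 126, 50 and 65 counts, the 3 of Dynlt1b and Tmem181b-ps 224, 206, 345 and 480, and the 2 of Dynlt1c and Tmem181c-ps 186, 150, 278 and 424. In each of these groups the strains did not overlap, and only the first was lower in D2.

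**Figure D2:**
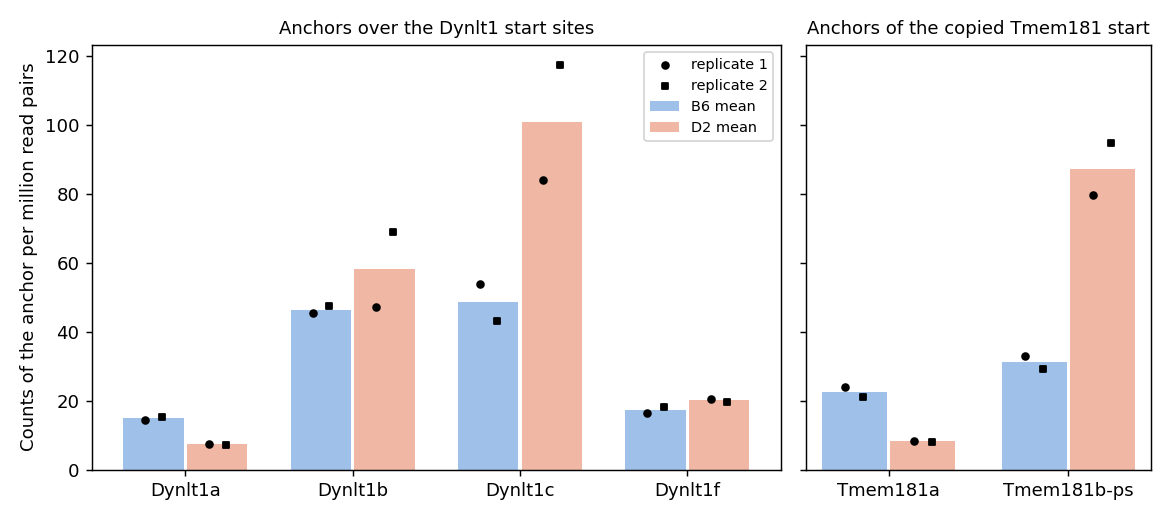
CPM of the anchors over the 4 Dynlt1 starts (left) and of the anchors holding the identical copied Tmem181 start (right); bars are means of 2 libraries of a strain and points the single libraries. Dynlt1a and Tmem181a are lower in D2, Dynlt1c and Tmem181b-ps higher, and Dynlt1f is nearly level at 17.4 and 20.1.

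Single pairs of anchors are called loops here whether or not they exceed a background. Of the 62 segment loops with at least 20 counts, 6 passed an adjusted p of 0.05 in the edgeR fit over all 108034 such loops, where 1.45% of all passed (0.492% higher, 0.957% lower in D2). All 6 were higher in D2, 5 of them among the 18 core loops and 1 in the left flank. None was lower by edgeR, also at an unadjusted p under 0.05 (0 lower and 11 higher), which 12681 of the 108034 loops reached. The minimum of 20 counts is on the sum of the 4 libraries, so a loop weak in one strain enters only through the other. The directions of the tested loops depend in part on this minimum. Loops below it had no test, such as that at Tmem181a (10, 3, 0 and 0 counts) and that from Tmem181b-ps to Gm26848 (0, 1, 8 and 10). DESeq2 gave none of the 62 an adjusted p and had 7 at an unadjusted p under 0.05, beside 2358 of the 108034 loops. Without 1 library 34 to 41 loops kept 20 counts and 1 to 3 passed, the fewest without B6 replicate 2. Both D2 libraries lay above both B6 libraries in 23 loops and below in 4, where 41.7% of all loops were separated (23.8% above, 17.9% below). The median log2 fold change was 0.72 among the core loops, 0.32 in the segment and 0.02 over all loops.

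The loop with the clearest contrast joined the anchor at the 5′ end of Tmem181b-ps with the Dynlt1c start, 133.0 kb apart. It had 6 and 2 counts in B6 and 28 and 35 in D2, that is 1.39 CPM ± 0.954 and 11.0 CPM ± 1.25 (SD, n = 2 each) and a log2 fold change of 2.87 (SE 0.46). It had the most counts of any core loop in each D2 library, and of the 6 calls it was the 1 that passed with each library left out in turn. The same Tmem181b-ps anchor joined Tmem181c-ps, 166.2 kb away, with 2, 0, 9 and 17 counts, and Gm29721, 93.6 kb away, with 3, 1, 14 and 17 counts. Both separated the strains, at log2 fold changes of 3.48 (SE 0.77) and 2.81 (SE 0.64), from very few B6 counts. The first was lost without B6 replicate 2 and the second without either B6 library. Of the 4 fits with a library left out, 2 kept enough counts for the first and 3 for the second, and each passed in 1. The Tmem181b-ps and Tmem181c-ps anchors are copies of each other (94.9% of the shorter aligned, 98.5% identity), and read placement between them was not tested.

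The other 2 core loops that passed ended at Dynlt1c. The Dynlt1b start and the Dynlt1c start, 170.8 kb apart, were joined by 6, 4, 20 and 24 counts (log2 fold change 2.04, SE 0.48), a call lost without either B6 library. Gm29721 and Dynlt1c, neighbours at 39.5 kb, were joined by 11, 8, 25 and 26 counts (log2 fold change 1.35, SE 0.40), a call that was lost without any 1 library. Each had all D2 values above all B6 values. The Dynlt1b and Dynlt1c anchors are copies of each other (100% of the shorter aligned, 98.9% identity), and read placement between them was not tested. The loop of the Dynlt1b start with Gm29721 had 3, 4, 10 and 18 counts, also with both D2 libraries above, and did not pass (log2 fold change 1.90, SE 0.58). The 1 call outside the core joined the Snx9 start with its neighbour 9.24 kb away (5838843 and 5852841), with 13, 4, 29 and 20 counts and a log2 fold change of 1.45 (SE 0.41), in which B6 replicate 2 was the lowest by far. This call was lost without B6 replicate 2 (0.84) and without D2 replicate 1.

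In B6 another core loop had the most counts in both libraries. The loop of the Dynlt1b start with the Tmem181b-ps anchor, 37.7 kb apart, had 12 and 15 counts in B6 and 23 and 27 in D2, with both D2 libraries above and a log2 fold change of 0.82 (SE 0.37). At Tmem181a the loop between its second start and the 3′ ends of Tmem181a and Dynlt1a had 10 and 3 counts in B6 and 0 in both D2 libraries. Conversely the loop from the Tmem181b-ps anchor to the last exon of Gm26848, 16.0 kb away, had 0 and 1 counts in B6 and 8 and 10 in D2. Both were under 20 counts and had no fitted value.

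Outside the core the loops with the most counts differed less between the strains, apart from the Snx9 loop above. The start of Rps6ka2 and an anchor 67.5 kb downstream (7167166 and 7224738) had 15, 21, 24 and 19 counts, with the strains overlapping and a log2 fold change of 0.19 (SE 0.36). An anchor inside Rps6ka2 joined the same partner (7186874 and 7224738) with 17, 21, 16 and 25 counts, an equal sum, and these 2 loops had the most counts of the segment. The Snx9 start and an anchor further right (5838843 and 5868429) had 16, 14, 17 and 26 counts, with both D2 libraries just above B6 and a log2 fold change of 0.45. The lowest fitted value was that of the loop between the starts of Snx9 and Synj2, with 5, 9, 3 and 5 counts and -0.85 (SE 0.65). There D2 replicate 2 equalled B6 replicate 1 in counts.

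**Figure D3:**
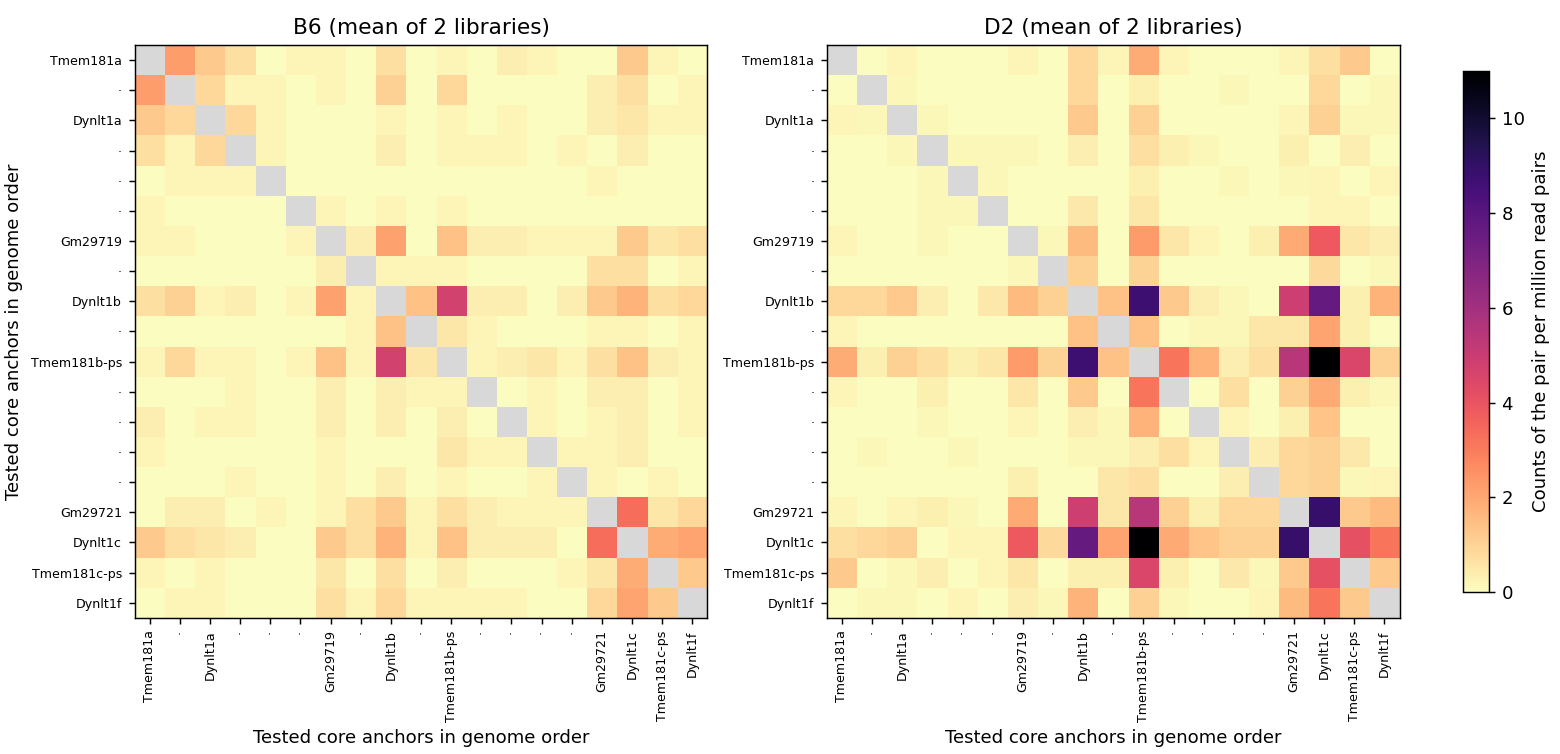
CPM of each pair among the 19 core anchors with a fitted value, as the mean of 2 libraries of B6 (left) and D2 (right), on one colour scale with anchors in genome order (grey: the diagonal, not in the table; dots: anchors without a gene label). The darkest cell, Tmem181b-ps with Dynlt1c, is 1.39 in B6 and 11.0 in D2, and the cells joining Tmem181a to its nearest neighbours, in the upper left corner, are darker in B6 than in D2.

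Summed over all core anchors, the strains stood furthest apart in contacts within the core. Pairs with both anchors in the core had 180 and 157 counts in B6 and 314 and 410 in D2, 2.14 times as high in CPM. Pairs from the core to the left flank had 174, 166, 151 and 206 counts, a ratio of 1.05, and pairs leaving the segment had 206, 168, 163 and 246, a ratio of 1.09. In both of these classes the lowest and the highest library were both of D2. Pairs to the right flank had 148, 137, 151 and 253 counts, a ratio of 1.41, with both D2 libraries above B6 in CPM and D2 replicate 1 only just so. Contacts within the core made up 25.4% and 25.0% of the core's counts in B6 and 40.3% and 36.8% in D2.

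The partner classes of single anchors differed from these sums, in which opposite differences are added. The Tmem181b-ps anchor had 44 and 29 counts to other core anchors in B6 but 119 and 150 in D2 (ratio 3.69), and its ratios to the left flank, the right flank and beyond were 2.62, 2.07 and 1.87. The Dynlt1c anchor had ratios of 3.01 within the core, 1.89 to the left flank, 1.60 to the right flank and 1.41 beyond. Its counts to the right flank (39, 28, 36 and 72) and beyond (42, 33, 39 and 67) overlapped between strains, and D2 replicate 2 was the highest library in both. The Dynlt1b anchor had 42, 53, 80 and 112 counts within the core, a ratio of 2.01, with both D2 libraries above. To the left flank it had 26, 31, 11 and 31 counts (ratio 0.725), where only D2 replicate 1 was low, and beyond the segment 37, 30, 23 and 31 (ratio 0.804), with D2 replicate 2 close to B6 replicate 2. The Tmem181a anchor had 26, 18, 18 and 14 counts within the core, a ratio of 0.733, against 21, 14, 2 and 5 to the left flank and 20, 20, 3 and 2 beyond the segment, ratios of 0.198 and 0.126. Its counts to the left flank and beyond the segment were lower in both D2 libraries, whereas those within the core overlapped between strains in CPM. To the right flank it had only 3, 7, 0 and 3 counts (ratio 0.289).

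**Figure D4:**
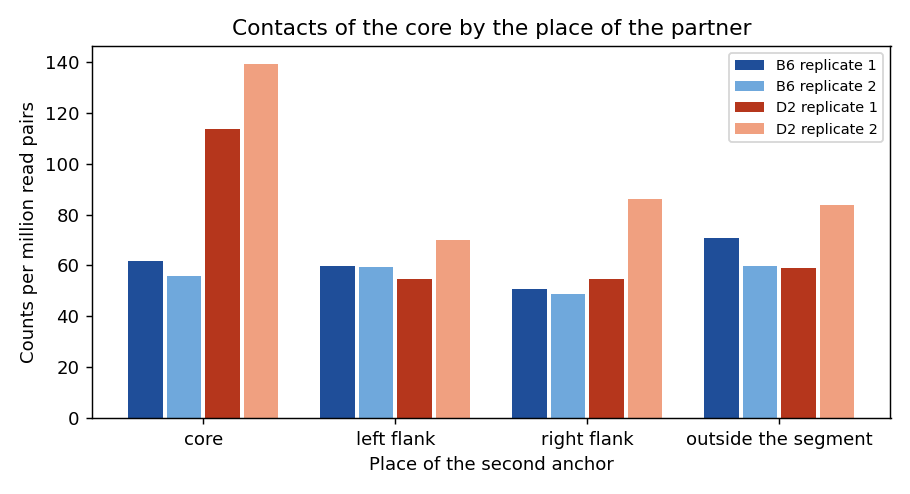
CPM of pairs with a core anchor, by the place of the second anchor, in each of the 4 libraries. Within the core both D2 libraries stand above both B6 libraries, by 2.14 times in the mean; to the left flank and outside the segment the strains overlap.

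Contacts of the segment spanned shorter distances in D2 when every count was used. The median distance over counts was 272.6 and 283.0 kb in B6 and 170.8 and 201.5 kb in D2, a difference of the means of -91.7 kb. Over the whole table the medians were 120.4, 119.5, 104.9 and 110.2 kb. Among pairs with at least 2 counts in the library the difference was 0.45 kb, and among pairs with both anchors in the segment -6.73 kb, and the cause of this change was not tested. The left flank alone had medians of 284.2 and 309.5 kb in B6 and 148.3 and 153.2 kb in D2.

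The deposited files of single libraries carry a second value per pair, taken here as the authors' q-value for the loop in that library. Of the segment's pairs 146 and 152 had a value under 0.01 in the B6 libraries and 141 and 195 in D2. Among core pairs 47, 44, 75 and 100 had such a value. The share of core pairs with counts is not given here, so these numbers have no background beside them. For the Tmem181b-ps to Dynlt1c loop the authors' deposited values for B6 were 0.395 and 1, against 2.02e-12 and 0 for D2. Of segment pairs with counts 10.4% to 13.9% were under 0.01 in a library, below the 21.5% to 22.9% of all chromosome 17 pairs.

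Other subunits of cytoplasmic dynein lie outside the segment and served as a comparison by function. All 9 genes of the list (heavy, intermediate and light intermediate chains, and the light chains of the roadblock and LC8 families) had a start anchor with enough counts, at 3.97 to 267.0 CPM. None passed in the edgeR fit (2 higher at an unadjusted p under 0.05) or with DESeq2 (1 higher at an unadjusted p under 0.05). Of all 51820 anchors, 11361 had such an unadjusted p by edgeR and 5349 by DESeq2. Their median log2 fold change was 0.20, beside 0.01 over all anchors. The anchors of the 4 Dynlt1 starts, with 14.9 to 48.6 CPM in B6, lay within the range of these anchors.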

How the data were processed

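H3K27ac HiChIP of 4 mouse embryonic stem cell libraries was analysed from the deposited table of raw counts per pair of anchors, which the authors did not normalize, and from the deposited single-library files, whose second value was taken as a p-value adjusted by the authors' loop caller (a q-value). HiC-Pro 2.11.4, DESeq2 and mm10 are named in the submitters' processing notes without a role. The names of the deposited single-library files carry the word mango, the name of a loop caller, and its settings and the handling of reads with several matches are not given in the sources used here. For all 3077 segment pairs the table and the 4 single-library files held equal counts. Library totals of 2767882 to 2944258 counts set the depth, and 62 of the 3077 segment pairs and 69 of the 80 anchors held at least 20 counts over the 4 libraries.

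Anchor counts were sums over the pairs that use the anchor. CPM used plain library totals. Log2 fold changes (D2 over B6) came from edgeR 4.0.16 (R 4.3.3) with TMM and strain as the only term, fitted to all pairs or anchors with at least 20 counts, and calls used a Benjamini-Hochberg adjusted p under 0.05. The fit was tested on simulated data. DESeq2 1.42.0, other scalings and count minimums, a replicate block and leaving out each library were tried. Unique 75-base windows were counted exactly over 21 chromosomes of GRCm38, duplications were aligned with minimap2 2.31 and start copies with edlib 1.3.9.post1, and genes came from GENCODE M21. Replicates are cell lines that the labels call biological replicates. All table columns were matched to a sample.

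The segment, its parts and the gene lists were chosen with earlier results of these data known. By rule, values could be named for all core anchors, for flank anchors over a coding start or among the 5 with the most counts, and for loops (the 10 with the most counts, the 5 highest and 5 lowest log2 fold changes, and each core anchor's own strongest loop), and the text gives those its results turn on. The anchors at 6693560, 6902672, 7186874 and 7196447, and those described by range, were named after their values were seen.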

Additional observations from a re-analysis of the deposited data

How the results depend on the processing

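Restricting the pairs moved the strain ratios of the shares, whereas TMM-scaled totals, shares of chromosome 17 and pairs within the segment moved none of them by more than the SD between replicates. With only pairs of at least 20 counts the log2 ratio of D2 over B6 was 0.58 for the segment, 1.28 for the core, 0.37 for the left flank and 0.29 for the right flank. With only pairs under 0.01 in the authors' value it was 0.74 for the segment, 1.64 for the core, -0.21 for the left flank and 0.53 for the right flank. Both settings keep a pair through its own counts, the second in each library on its own. Pairs high in one strain thus enter through that strain, and these ratios include that selection. In the core 47, 44, 75 and 100 pairs were under 0.01. Leaving out 1 library gave -0.05 to 0.31 for the segment, 0.27 to 0.70 for the core, -0.29 to 0.13 for the left flank and -0.06 to 0.07 for the right flank. The difference in median distance was 0.45 kb with pairs of at least 2 counts in the library, -6.73 kb with both anchors in the segment, and -107.0 to -76.3 kb without 1 library. Of segment loops, 6 were called, 2 with no count minimum, 2 with at least 50 counts (14 loops tested) and 1 to 3 without 1 library. DESeq2 gave no adjusted p for these loops. Of anchors, 12 were called, 5 with DESeq2 and 8 to 13 without 1 library. The replicate block, in which the strains share only a number by the labels (correlation of replicate differences 0.0045 over 51820 anchors), called 5 loops and 12 anchors. None of the 12 anchors and 6 loops called changed direction in the settings run, whereas some named anchors and loops that did not pass did, such as the main Synj2 start anchor (0.01, and -0.46 without D2 replicate 2). The cause of these shifts was not tested, and low counts limit single pairs most: 1624 of 3077 held 1 count.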
